A study of Mus musculus with 35 samples.

Results

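The solute carrier family Slc16 encodes the monocarboxylate transporters, and 7 of its genes, Slc16a1, Slc16a5, Slc16a7, Slc16a10, Slc16a11, Slc16a12 and Slc16a13, were followed here in mouse liver after styrene inhalation. They were read by all 9 probe sets that name exactly 1 gene, where that gene is one of the 7. The array held 45037 probe sets without its controls, and those that name 1 gene covered 17097 genes. The family was selected on styrene-against-air results of these arrays, Slc16a5 being among the largest differences at 120 ppm. The values of the 7 genes against air are therefore given as a description, with differences and standard errors but no p-value for any gene. How many of their probe sets passed the threshold used for the whole array is printed only beside the share of all probe sets that did.

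Adult male wild-type C57Bl/6 mice, an inbred laboratory strain, breathed air or styrene vapour for 6 h on 1 occasion, singly caged, and livers were collected the morning after. Styrene is a volatile liquid used to make plastics and resins. The groups were air alone (0 ppm) and styrene at 1, 5, 10, 20, 40 and 120 ppm, with 5 mice per group and 1 array of whole-liver RNA per mouse, 35 arrays in all. The mice were kept with free access to food and water. Litter and the batch of extraction or scanning were not given in the sources used here.

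Monocarboxylate transporters are membrane proteins that carry small carboxylic acids and related molecules down their gradients. The best known members move lactate, pyruvate and ketone bodies together with a proton, and need a glycoprotein partner such as basigin or embigin to reach the cell surface. The liver takes up lactate to make glucose and releases ketone bodies during fasting. Other members carry aromatic amino acids, thyroid hormone, creatine or drugs, and several have no settled substrate.

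Promoter sequences, 250 bases before to 50 after the gene start, were matched in a RefSeq table of the GRCm38.p6 build for 4 of the 7 genes: Slc16a1, Slc16a10, Slc16a11 and Slc16a12. Those of Slc16a12 and Slc16a1 are shown because one of these genes was higher in the liver at every dose from 20 ppm and the other lay close to its air level at 120 ppm. Slc16a12 lies at chr19:34747279-34747578 on the minus strand and Slc16a1 at chr3:104638414-104638713 on the plus strand. Capitals mark the matches to the motifs that were searched.
Slc16a12: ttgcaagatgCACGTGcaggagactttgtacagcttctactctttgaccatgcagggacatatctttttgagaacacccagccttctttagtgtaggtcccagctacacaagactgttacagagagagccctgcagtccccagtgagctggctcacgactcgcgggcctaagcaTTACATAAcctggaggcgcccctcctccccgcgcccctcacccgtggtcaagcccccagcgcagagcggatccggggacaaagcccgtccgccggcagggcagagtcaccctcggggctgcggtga
Slc16a1: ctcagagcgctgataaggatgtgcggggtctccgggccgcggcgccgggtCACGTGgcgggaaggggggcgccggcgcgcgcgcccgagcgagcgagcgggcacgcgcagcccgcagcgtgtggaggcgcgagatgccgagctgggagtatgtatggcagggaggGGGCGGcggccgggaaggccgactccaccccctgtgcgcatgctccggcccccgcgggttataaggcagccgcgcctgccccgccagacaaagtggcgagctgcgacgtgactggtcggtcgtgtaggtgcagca

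Of 6 motifs searched on both strands, the E-box CACGTG was in both promoters, 240 bases before the start in Slc16a12 and 200 in Slc16a1. It was in 7.15% of all 32851 promoters of that length. The D-box TTATGTAA was in Slc16a12 alone among the 4 promoters, read as TTACATAA 76 bases before the start, and in 0.938% of all promoters. The GC box GGGCGG, in 35.7% of all promoters, was 85 bases before the start of Slc16a1, and it occurred 3 times in Slc16a10. CCAAT, in 37.4%, occurred in Slc16a10 and Slc16a11. TATAAA, in 13.6%, and the repeat of AGGTCA in the same orientation with 1 base between, in 0.0396%, matched none of the 4. The Slc16a1 window was 73.7% G and C and that of Slc16a12 60% G and C, against a median of 52.7% over all promoters. A match is a description of the letters, and no match says only that those letters are not in this window.

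The deposited values are log2 signals, and 1 unit is a 2-fold difference if the base is 2 as their range implies. The median of all probe sets on an array was higher with dose, averaging 3.60 at 120 ppm, against 3.50 in air. The 3' minus 5' signal of the actin control is a measure of RNA integrity. It averaged 0.72 at 20 ppm, 0.71 at 40 ppm and 0.717 at 120 ppm, against 0.478 in air. The lowest arrays at 20, 40 and 120 ppm read 0.61, 0.60 and 0.65, above the highest air array at 0.55. The hepatocyte markers were all measured and bright, with a mean level of 13.10 to 13.24 in the 120 ppm mice and 13.15 to 13.21 in air mice. Of 10 Kupffer cell markers, 0, 3 and 5 fell at 20, 40 and 120 ppm against air, beside 0.959%, 6.24% and 7.99% of all genes. Their median log2 difference was already -0.41 at 20 ppm, with -0.37 at 40 ppm and -0.49 at 120 ppm. At these doses 7, 6 and 8 of the 10 had an unadjusted limma p under 0.05. Their mean level ranged over 6.56 to 7.21 in the 120 ppm mice and 7.04 to 8.08 in air mice. Of 6 lymphocyte markers, 2 rose at 120 ppm, beside 11.2% of all genes, with a low mean level of 3.66, against 3.55 in air. Exocrine pancreas markers averaged 4.14 at 120 ppm, against 4.45 in air, with 1 of 5 called lower. Each of the other marker lists had at most 1 marker called at that dose. The part of these shifts in the results was not tested. In whole liver, fewer cells of a type and less RNA per cell cannot be told apart. The 2 arrays that correlated least with the rest were 5 ppm replicate 1 and 10 ppm replicate 2.

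Slc16a5, a drug-transporting member whose human protein, MCT6, carries bumetanide, had the widest range of the 7 genes. Its values were 3.03, 3.31, 3.18, 3.37 and 4.25 in air mice, 3.75, 6.15, 3.53, 4.29 and 4.21 at 1 ppm, and 3.52, 3.54, 3.40, 4.37 and 4.79 in the 5 ppm mice. They were 3.20, 7.21, 4.67, 4.11 and 3.81 at 10 ppm, 5.25, 7.59, 4.62, 7.77 and 6.35 at 20 ppm, 8.14, 7.18, 7.58, 7.65 and 7.70 in the 40 ppm mice, and 7.86, 7.51, 7.54, 6.76 and 6.28 at 120 ppm. Every mouse at 20, 40 and 120 ppm lay above all 5 air mice. The groups at 1, 5 and 10 ppm overlapped air, with 2 of 5 mice in each above all air mice. Among these, 1 mouse at 1 ppm (6.15) and 1 at 10 ppm (7.21) lay far above the others of their groups. The mouse at 7.21 was replicate 2, whose array was among the least correlated. The log2 differences from air at 1, 5 and 10 ppm were 0.96, 0.49 and 1.17 (SE 0.56).

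The group means of Slc16a5 were 3.43 ± 0.48 in air, 4.39 ± 1.04 at 1 ppm, 3.92 ± 0.62 at 5 ppm, 4.60 ± 1.55 at 10 ppm, 6.32 ± 1.39 at 20 ppm, 7.65 ± 0.34 at 40 ppm and 7.19 ± 0.65 at 120 ppm (SD, n = 5 each). In order from low to high they ran air, 5, 1, 10, 20, 120 and 40 ppm, and the values of each neighbouring pair in that order overlapped. Relative to air the 20 ppm mice differed by 2.89 ± 0.56, the 40 ppm mice by 4.22 ± 0.56 and the 120 ppm mice by 3.76 ± 0.56 (log2, SE), or 7.41-, 18.6- and 13.6-fold. The air mean lies near the median of all probe sets on the air arrays, 3.50, where array noise bounds a low value, so such a fold can be understated.

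**Figure D1:**
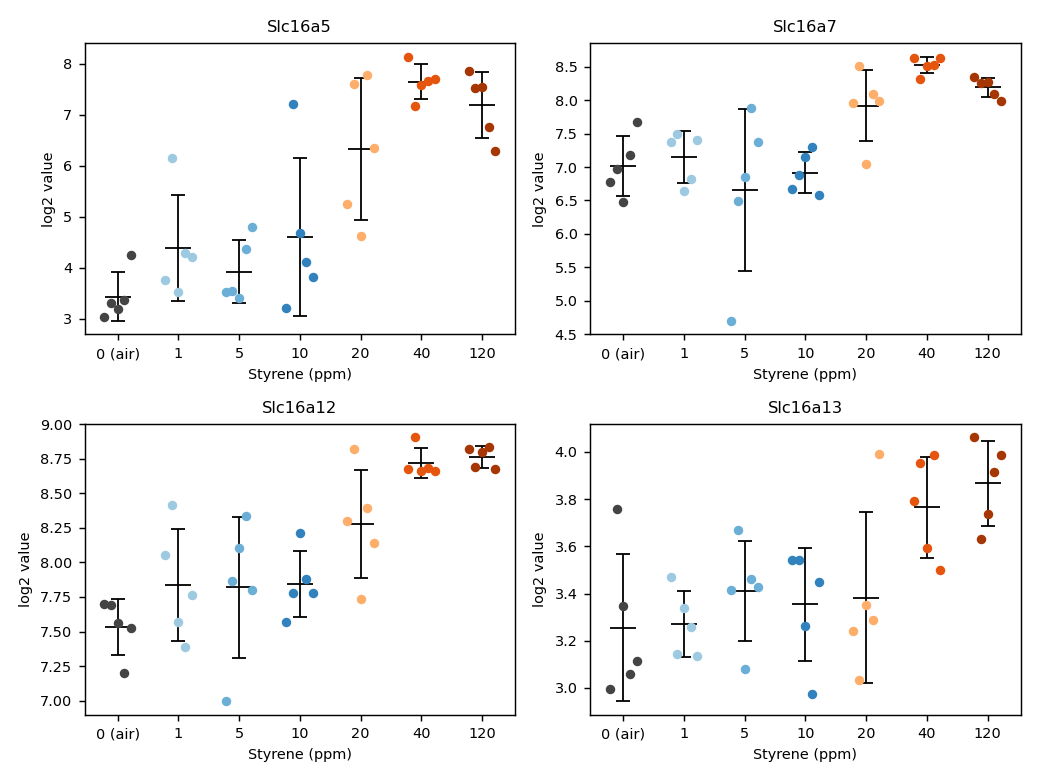
Log2 value of Slc16a5, Slc16a7, Slc16a12 and Slc16a13 (vertical axes, scaled separately and not starting at 0) against styrene in ppm, with 1 point per mouse and black bars for the group mean ± SD (n = 5 each). All 5 mice at 40 and at 120 ppm lie above all 5 air mice for Slc16a5, Slc16a7 and Slc16a12, while for Slc16a13 the groups overlap.

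Slc16a7 encodes MCT2, a transporter with high affinity for pyruvate and lactate. It read 7.96, 8.50, 7.04, 8.09 and 7.98 at 20 ppm, 8.62, 8.32, 8.51, 8.53 and 8.64 in the 40 ppm mice, and 8.35, 8.25, 8.27, 8.09 and 7.99 at 120 ppm, against 6.77, 6.97, 6.48, 7.17 and 7.67 in air. At the lower doses it read 7.38, 7.49, 6.64, 6.82 and 7.40 at 1 ppm, 4.70, 6.49, 6.85, 7.88 and 7.38 in the 5 ppm mice, and 6.67, 6.88, 7.15, 7.30 and 6.59 at 10 ppm. The 40 and 120 ppm mice lay above every air mouse, 4 of 5 mice at 20 ppm did so, and the groups at 1, 5 and 10 ppm overlapped air. The lowest mouse of all, at 4.70, was 5 ppm replicate 1, one of the least correlated arrays.

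The mean of Slc16a7 was 7.92 ± 0.53 in the 20 ppm mice, 8.53 ± 0.13 at 40 ppm and 8.19 ± 0.15 at 120 ppm, against 7.01 ± 0.45 in air (SD, n = 5 each). Set against air it was 0.90 higher at 20 ppm, 1.51 higher at 40 ppm and 1.18 higher at 120 ppm on the log2 scale, each with an SE of 0.33. The spread between mice was smaller at 40 and 120 ppm than in any other group of this gene, a description without a test.

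A further probe set carries the name D630004K10Rik, which the RefSeq gene table lists only as a synonym of Slc16a7, the identifier attached to the probe set having 0 rows there. It is not one of the 9 by the rule, and it was singled out after its values were seen. It serves as a second reading of Slc16a7 on the same arrays. It gave 5.45, 6.45, 4.91, 5.98 and 6.27 at 20 ppm, 6.40, 6.43, 6.15, 6.48 and 6.34 in the 40 ppm mice, and 6.36, 6.14, 6.26, 6.50 and 6.49 at 120 ppm, against 3.80, 4.35, 4.07, 4.12 and 4.65 in air. All 15 of these styrene mice lay above all air mice. Its log2 difference from air came to 1.62 for 20 ppm, 2.16 for 40 ppm and 2.15 for 120 ppm, each with an SE of 0.23. The differences were thus of the same sign as those of the first probe set and larger at each of the 3 doses. At 1, 5 and 10 ppm it differed by 0.54, 0.24 and 0.59, with 4, 2 and 4 of 5 mice above all air mice. The first probe set differed there by 0.13, -0.36 and -0.10 (SE 0.33), so the signs parted at 5 and 10 ppm. Both readings had the same lowest mouse overall and the same lowest and highest mouse at 20 ppm. Their Pearson correlation was 0.888 over the 35 arrays, which share RNA and dose groups. None of this is particular to Slc16a7. The D630004K10Rik probe set correlated at 0.899 with Slc16a5 and at 0.896 with Slc16a12, and Slc16a12 had the same mice at these extremes.

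**Figure D2:**
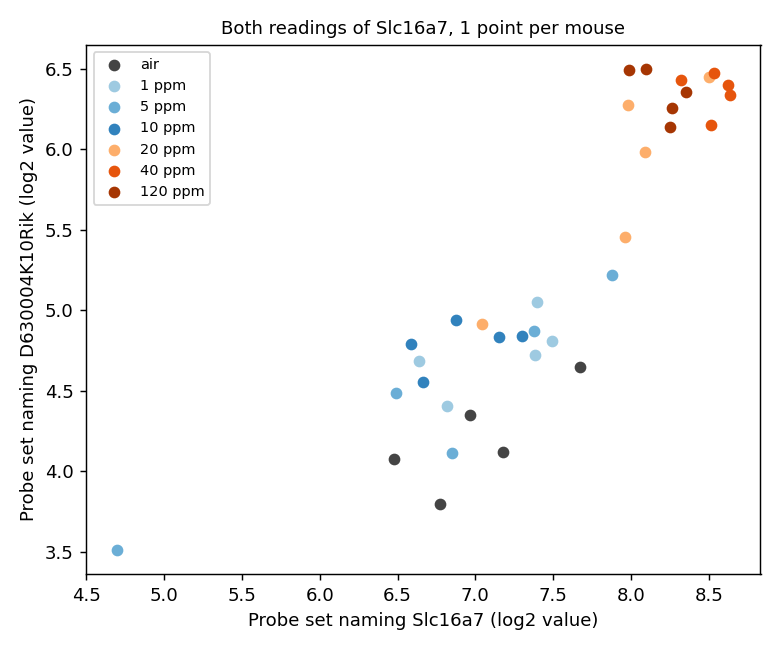
Log2 value of the probe set naming D630004K10Rik (vertical) against that of the probe set naming Slc16a7 (horizontal), 1 point per mouse, coloured by group. All 40 and 120 ppm mice lie in the upper right (at least 7.99 and 6.14), while of the 20 ppm mice replicate 3 (7.04 and 4.91) lies among the low-dose mice and replicate 1 (7.96 and 5.45) lies near 5 ppm replicate 4 (7.88 and 5.22).

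Slc16a12, whose human protein carries creatine, read 8.30, 8.82, 7.74, 8.40 and 8.14 at 20 ppm, 8.68, 8.91, 8.67, 8.68 and 8.66 in the 40 ppm mice, and 8.82, 8.69, 8.80, 8.84 and 8.67 at 120 ppm, against 7.70, 7.69, 7.56, 7.20 and 7.52 in air. It read 8.05, 8.42, 7.57, 7.39 and 7.77 at 1 ppm, 6.99, 7.86, 8.10, 8.33 and 7.80 in the 5 ppm mice, and 7.57, 7.78, 8.22, 7.88 and 7.78 at 10 ppm. All 15 mice at 20 ppm and above exceeded all air mice. The 3 lower-dose groups overlapped air, but 3, 4 and 4 of 5 mice at 1, 5 and 10 ppm also lay above all air mice. Their log2 differences from air were 0.30, 0.28 and 0.31 (SE 0.19). The lowest mouse was again 5 ppm replicate 1.

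The mean of Slc16a12 was 8.28 ± 0.39 in the 20 ppm mice, 8.72 ± 0.11 at 40 ppm and 8.76 ± 0.08 at 120 ppm, against 7.53 ± 0.20 in air (SD, n = 5 each). These are log2 differences of 0.74, 1.19 and 1.23 (SE 0.19), or 1.67-, 2.27- and 2.34-fold. Its 40 and 120 ppm groups overlapped each other, as they did for Slc16a5, Slc16a7 and Slc16a13.

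Slc16a13, a less studied member, lies next to Slc16a11 among the protein-coding genes of chromosome 11 in the RefSeq table. Its probe set read 3.79, 3.95, 3.59, 3.99 and 3.50 in the 40 ppm mice and 4.06, 3.63, 3.74, 3.92 and 3.99 at 120 ppm, against 3.00, 3.76, 3.35, 3.06 and 3.12 in air. The groups overlapped through air replicate 2 at 3.76, and 3 of 5 mice at each dose lay above all air mice. The log2 difference from air came to 0.13 for 20 ppm, 0.51 for 40 ppm and 0.61 for 120 ppm (SE 0.15), and it was 0.52 at 120 ppm with every array centred on its median. The values are near the array median, so this is a low reading.

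Its neighbour Slc16a11, whose human gene carries a haplotype linked to type 2 diabetes, read 5.80, 5.78, 5.64, 5.77 and 5.42 at 120 ppm, against 5.26, 5.35, 5.46, 5.66 and 5.57 in air. The mean was 5.68 ± 0.16 at 120 ppm, against 5.46 ± 0.16 in air (SD, n = 5 each), a log2 difference of 0.22 ± 0.09 (SE) with overlapping groups. With arrays centred on their median the difference at 120 ppm was 0.12. As deposited, it was 0.11 at 20 ppm and 0.14 at 40 ppm (SE 0.09), again with overlap.

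Slc16a1 encodes MCT1, the widely expressed transporter of lactate and ketone bodies. Its brighter probe set read 9.70, 9.35, 8.90, 9.30 and 9.06 at 20 ppm, 8.98, 9.56, 9.01, 9.18 and 8.93 in the 40 ppm mice, and 8.93, 8.64, 9.26, 8.98 and 8.92 at 120 ppm, against 8.77, 9.15, 9.07, 8.63 and 8.84 in air. All 3 groups overlapped air, and the mean was highest at 20 ppm. The log2 difference from air came to 0.37 for 20 ppm, 0.24 for 40 ppm and 0.06 for 120 ppm (SE 0.16), and the last value was -0.04 with arrays centred on their median. The single highest low-dose mouse, at 9.62, was 10 ppm replicate 2, the mouse that also had the highest low-dose value of Slc16a5. Its array was among the least correlated. The dimmer probe set of Slc16a1 averaged between 2.59 and 2.72 in every group.

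Slc16a10 encodes TAT1, a transporter of aromatic amino acids whose human counterpart also carries thyroid hormone. Its brighter probe set read 4.65, 5.87, 5.56, 4.83 and 4.60 at 20 ppm and 4.44, 4.66, 4.60, 4.68 and 4.88 at 120 ppm, against 5.13, 5.15, 4.98, 4.81 and 4.63 in air. At 20 ppm 2 mice stood well above the air range while 1 lay below it, and at 120 ppm the range overlapped air from below. The log2 difference from air was -0.22 at 40 ppm and -0.29 at 120 ppm (SE 0.18). Its dimmer probe set differed by -0.19 at 20 ppm, 0.09 at 40 ppm and 0.05 at 120 ppm (SE 0.17), so the 2 probe sets did not share a direction.

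**Figure D3:**
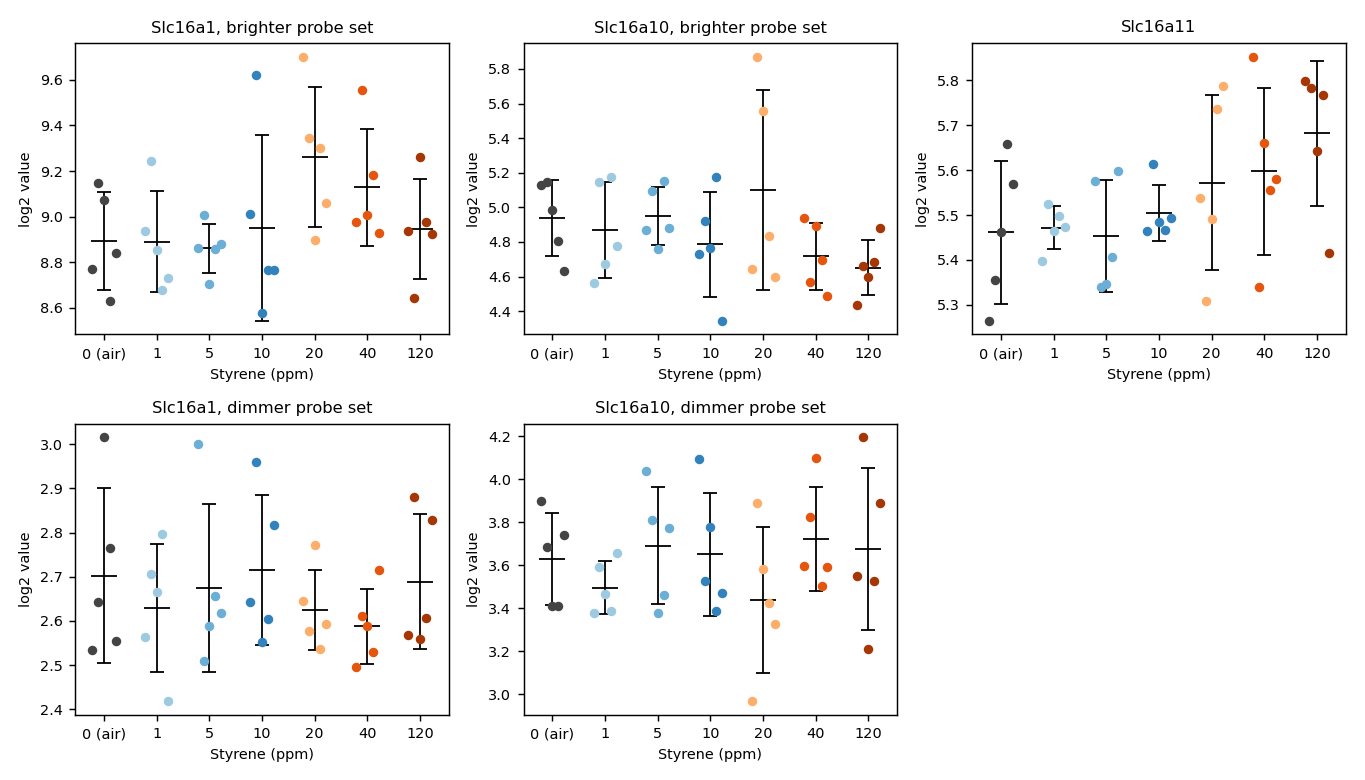
Log2 value of the brighter and dimmer probe sets of Slc16a1 and Slc16a10 and of the probe set of Slc16a11 (vertical axes, scaled separately and not starting at 0) against styrene in ppm, 1 point per mouse with the group mean ± SD (n = 5 each). The 120 ppm and air groups overlap in every panel.

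Counted at an adjusted p under 0.05 from limma over all probe sets, 2 of the 9 probe sets were higher at 20 ppm against air (Slc16a5 and Slc16a12), where 1.03% of all probe sets were called and 0.415% were higher. At 40 ppm and again at 120 ppm 4 were higher (Slc16a5, Slc16a7, Slc16a12 and Slc16a13), beside 14.6% and 19.4% of all probe sets called and 9.73% and 13% higher, and none of the 9 was lower. At 1, 5 and 10 ppm 0 of 9 were called, beside 0.00444%, 0.153% and 0% of all probe sets, and 0, 0 and 1 of the 9 had an unadjusted p under 0.05. These counts rest on the contrast from which the family was chosen, so nothing is read from them. The 20 ppm count was 0 without 20 ppm replicate 2 or replicate 4, and 1 without replicate 1 or 5 or without any 1 air mouse. The median log2 difference over the 9 probe sets came to 0.16 for 20 ppm, 0.24 for 40 ppm and 0.22 for 120 ppm, beside 0.01, 0.04 and 0.06 over all probe sets.

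**Figure D4:**
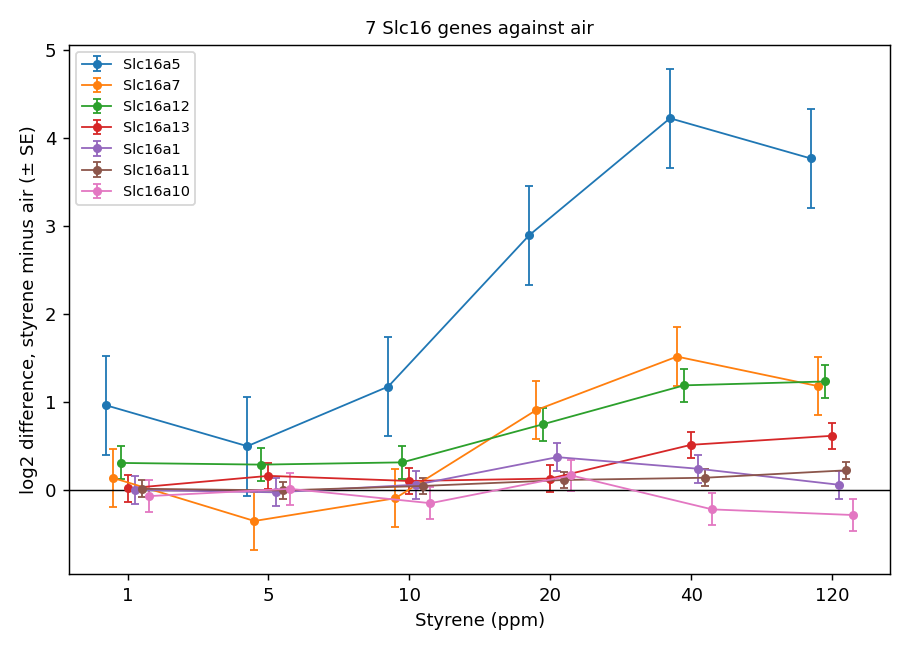
Log2 difference from air (vertical axis, ± SE from the fit over 35 arrays) against styrene in ppm on an even-stepped axis, with 1 line per gene and its brighter probe set where there are 2. Slc16a5 reaches 4.22 at 40 ppm, Slc16a7 and Slc16a12 lie between 1.18 and 1.51 at 40 and 120 ppm, and the other 4 genes stay between -0.29 and 0.61 at every dose.

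A comparison that uses neither the air nor the 120 ppm arrays in its contrast set the 40 ppm mice against the mean of the 1, 5 and 10 ppm groups (15 mice). Slc16a5, Slc16a7, Slc16a12 and Slc16a13 were higher at 40 ppm, 4 of 9 probe sets, where 20.2% of all probe sets were called and 13.2% were higher. The 4 are those already higher against air, and the family was chosen with results of these arrays known, so this is no independent support. The median over the 9 probe sets was 0.23, beside 0.04 over all.

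Slc16a5 averaged 7.65 ± 0.34 at 40 ppm, against 4.30 ± 1.09 in the 15 low-dose mice (SD), 10.2-fold higher, with a log2 difference of 3.35 (95% interval 2.41 to 4.28, limma adjusted p = 6.67e-06). At 40 ppm 4 of 5 mice exceeded all 15 low-dose mice, the exception lying under 10 ppm replicate 2, whose array was among the least correlated. Slc16a7 averaged 8.53 ± 0.13 at 40 ppm, against 6.91 ± 0.73, a log2 difference of 1.62 (95% interval 1.07 to 2.17, limma adjusted p = 8.25e-05), with all 5 mice above all 15. The D630004K10Rik probe set differed by 1.70 (limma adjusted p = 2.92e-07). It was singled out after its values were seen, so it adds no independent support for Slc16a7.

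Slc16a12 averaged 8.72 ± 0.11 at 40 ppm, against 7.83 ± 0.37, a log2 difference of 0.89 (95% interval 0.57 to 1.20, limma adjusted p = 0.000123), again with no overlap. Slc16a13 differed by 0.42 (95% interval 0.17 to 0.67, limma adjusted p = 0.0142), with 3 of 5 mice above all 15. That call was lost without replicate 4 of each group, where the difference was 0.34 and the limma adjusted p = 0.0889. Leaving out the 2 least correlated arrays gave 3.53 for Slc16a5, 1.45 for Slc16a7, 0.81 for Slc16a12 and 0.44 for Slc16a13, and all 4 still passed.

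The other 3 genes did not pass. The interval of the difference was -0.03 to 0.49 for the brighter Slc16a1 probe set (limma adjusted p = 0.209), -0.45 to 0.15 for the brighter Slc16a10 probe set (limma adjusted p = 0.493) and -0.04 to 0.28 for Slc16a11 (limma adjusted p = 0.274). After a second quantile normalization the difference was -0.32 for Slc16a10, against -0.15 as deposited, and that of Slc16a11 turned from positive to -0.02. Neither passed. When 1 replicate number was left out, the difference ranged over -0.24 to -0.07 for Slc16a10 and 0.06 to 0.19 for Slc16a11.

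**Figure D5:**
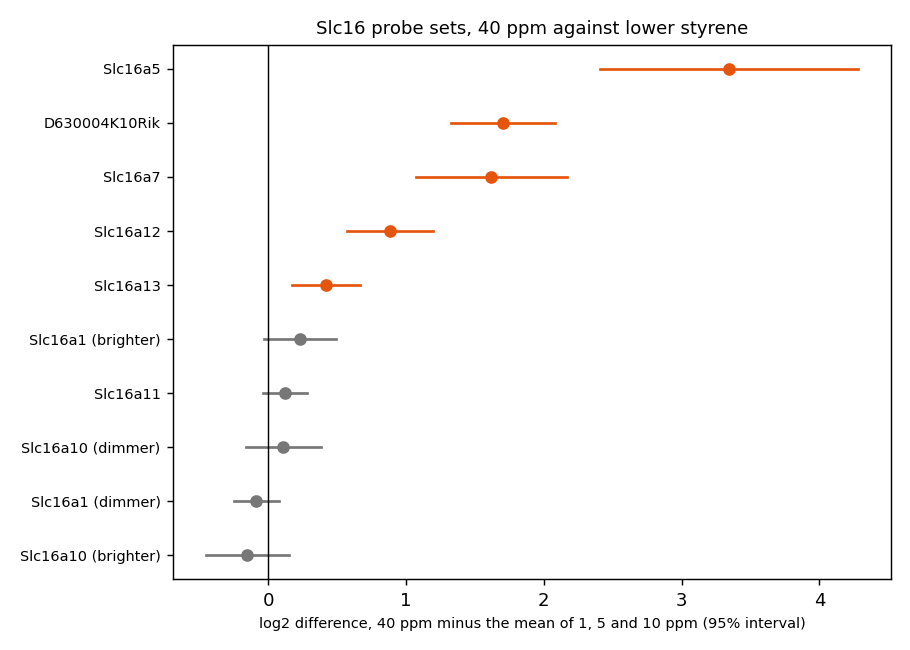
Log2 difference of the 40 ppm mice (n = 5) from the mean of the 1, 5 and 10 ppm groups (15 mice), with 95% intervals from the fit, for the 9 probe sets and D630004K10Rik, orange where the adjusted p is under 0.05 and grey otherwise. Slc16a5 lies farthest right at 3.35, and the intervals of the grey probe sets include 0.

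At 20 ppm against the same 15 mice, 2 of 9 probe sets passed, both higher, where 2.23% of all probe sets did and 1.02% were higher. Slc16a5 averaged 6.32 ± 1.39, against 4.30 ± 1.09 (SD), a log2 difference of 2.02 (limma adjusted p = 0.0119), and 2 of 5 mice exceeded all 15. Slc16a7 differed by 1.01 (limma adjusted p = 0.0375), with 4 of 5 mice above all 15. Both calls were lost without replicate 4 of each group (limma adjusted p = 0.132 for Slc16a5 and 0.0603 for Slc16a7) and without replicate 5 (0.0599 and 0.102), and that of Slc16a7 was lost without replicate 2 (0.239). With only the groups compared in the fit both were lost as well (0.0905 and 0.167). The family was chosen with results of these arrays known, so these calls are no independent support either. The D630004K10Rik probe set, singled out after its values were seen, differed by 1.16 (limma adjusted p = 0.000872). Slc16a12 differed by 0.44 (limma adjusted p = 0.137) and passed without replicate 3 (0.0299). The brighter Slc16a1 probe set differed by 0.36 (limma adjusted p = 0.159) and passed with array weights (0.0315).

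The 20 ppm group was the most uneven of the 3 highest doses for several of the genes. Its replicate 3 had the lowest value of the 5 mice in Slc16a1, Slc16a5, Slc16a7 and Slc16a12, at 8.90, 4.62, 7.04 and 7.74 in that order. Replicate 2 had the highest value in Slc16a7 and Slc16a12, and replicate 4 in Slc16a5. The order differed for Slc16a10, where replicate 3 was the second highest at 5.56. Over the 35 arrays the Pearson correlation was 0.859 between Slc16a7 and Slc16a12, 0.831 between Slc16a5 and Slc16a12 and 0.799 between Slc16a5 and Slc16a7, values that share arrays and dose groups. That of Slc16a10 with these 3 genes lay between -0.14 and -0.12.

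Within groups, the slope of the values on the order of the animal numbers was called for 0 of the 9 probe sets by limma, where 2.32% of all probe sets were called. Only Slc16a1 had an unadjusted p under 0.05, with -0.06 per place (limma adjusted p = 0.337).

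The genes whose pattern was most like that of Slc16a5 over the 35 arrays were Acot3, which encodes a peroxisomal acyl-CoA thioesterase, at a Pearson correlation of 0.963, and Fmo2, a flavin-containing monooxygenase, at 0.938. Prox1os followed at 0.934, Inpp5b, an inositol phosphatase, at 0.931, and Bnip3, a mitochondrial outer membrane protein, at 0.931. The mean of Acot3 was 9.54 at 40 ppm and 8.40 at 120 ppm, against 4.33 in air, so it too was higher at 40 than at 120 ppm.

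Slc16a7 was most like Slc10a1, the bile acid uptake transporter of hepatocytes (0.946), Acadm, an enzyme of medium-chain fatty acid oxidation (0.943), and Ttpa, the vitamin E transfer protein (0.931). Slc16a12 was most like Nucks1 (0.917), Uhrf1bp1l (0.915) and Morc3 (0.906). The remaining members had weaker likenesses, led by Ap1g2 for Slc16a13 (0.748), Ccdc151 for Slc16a10 (0.737), Man2b2 for Slc16a11 (0.735) and Adgrl2 for Slc16a1 (0.729). These correlations are over arrays that share dose groups, and describe likeness only.

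Of the other Slc16 genes, 6 were measured, Slc16a3, Slc16a4, Slc16a6, Slc16a8, Slc16a9 and Slc16a14, each taken at its brightest probe set. By limma 0 of 6 were called at 20, 40 or 120 ppm against air, with 1 of 6 at an unadjusted p under 0.05 at each dose, where 1.46%, 15% and 19.2% of all genes were called. Slc16a3, which encodes the lactate exporter MCT4, averaged 3.30 ± 0.07 at 120 ppm, against 3.03 ± 0.25 in air (SD, n = 5 each; limma adjusted p = 0.0635), and it passed without air replicate 1 (0.0347) or 4 (0.0232). Slc16a8 differed by -0.26 at 40 ppm (limma adjusted p = 0.164) and Slc16a9 by -0.30 at 20 ppm (limma adjusted p = 0.353).

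Slc16a6, Slc16a4 and Slc16a14 differed by 0.04, 0.04 and -0.05 at 120 ppm. Another, dim probe set of Slc16a9, singled out after its values were seen, averaged 2.71 at 120 ppm, against 2.48 in air, without overlap (limma adjusted p = 0.0265). It did not pass with arrays centred on their median (0.208), after a second quantile normalization (0.0571), without 120 ppm replicate 3 (0.0517) or 4 (0.0633), or without air replicate 5 (0.0583).

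The genes around the transporters were read from 7 lists that hold the other Slc16 genes, partner proteins and the pathways of the carried molecules. The lists were chosen with earlier results of these data known. Most genes are named by their p at 120 ppm, so their p-values here and below are a description. Of 51 measured genes, 3 rose and 1 fell at 20 ppm, 9 rose and 3 fell at 40 ppm, and 7 rose and 4 fell at 120 ppm against air. Of all genes, 0.497% were called higher and 0.959% lower for 20 ppm. For 40 ppm these shares were 8.74% and 6.24%, and for 120 ppm 11.2% and 7.99%. With arrays centred on their median 3 rose and 3 fell for 20 ppm, 7 rose and 5 fell for 40 ppm, and 5 rose and 6 fell for 120 ppm. The 20 ppm count ranged over 0 to 11 when 1 mouse was left out, being 0 without 20 ppm replicate 2, 2 without replicate 4 and 11 without replicate 3. The median log2 difference of the 51 genes at 120 ppm was 0.04, beside 0.04 over all genes.

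None of the 5 partner and sodium-coupled transporter genes passed at any of the 3 doses. Bsg, which encodes basigin, the partner of MCT1, averaged 11.04 at 120 ppm, against 11.03 in air, and Nptn, which encodes neuroplastin, a related glycoprotein, differed by 0.25 (limma adjusted p = 0.0509).

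In the lactate and pyruvate list of 8 measured genes, 2 rose at 120 ppm and 3 at 40 ppm, and none fell. Gpt2 and Gpt, alanine aminotransferases that interconvert alanine and pyruvate, rose by 0.72 (limma adjusted p = 4.95e-05) and 0.40 (limma adjusted p = 0.00586) at 120 ppm. Gpt2 averaged 11.30 at 40 ppm and 11.16 at 120 ppm, against 10.44 in air.

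In the ketone body list 1 of 5 measured genes rose and 1 fell at 120 ppm. Cpt1a, which admits fatty acids to mitochondria, averaged 11.24 at 20 ppm, 11.43 at 40 ppm and 11.26 at 120 ppm, against 10.44 in air (limma adjusted p = 0.000565 at 120 ppm). Bdh2, a hydroxybutyrate dehydrogenase, averaged 6.49, 6.52 and 6.56 at these doses, against 7.04 in air, and fell at all 3 (limma adjusted p = 0.014 at 120 ppm).

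In the creatine and carnitine list 3 of 7 measured genes rose at 40 ppm and 2 at 120 ppm, beside 8.74% and 11.2% of all genes, and none fell. At these doses 6 and 4 of the 7 had an unadjusted limma p under 0.05. The values that follow are those at 120 ppm. Slc25a20, the mitochondrial carnitine-acylcarnitine carrier, rose by 0.47 (limma adjusted p = 0.00523) and Tmlhe, the first enzyme of carnitine synthesis, by 0.66 (limma adjusted p = 0.0129). Both are genes of carnitine. Of the creatine genes Slc6a8 and Gamt, named after their values were seen, neither passed at 120 ppm. Tmlhe did not pass after a second quantile normalization (0.0623).

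Of the 11 measured genes of aromatic amino acids, which Slc16a10 carries, 1 rose and 2 fell at 120 ppm. Slc3a2, the heavy chain of amino acid exchangers, fell by 0.45 (limma adjusted p = 0.00491). Slc38a4, a transporter of neutral amino acids, rose by 0.35 (limma adjusted p = 0.0322), a call lost without 120 ppm replicate 1, 3 or 5 or without air replicate 2 or 3 (up to 0.115) and with arrays centred on their median (0.118). Hgd, an enzyme of tyrosine breakdown, differed by -0.22 (limma adjusted p = 0.0459), a call lost when 1 mouse was left out in 9 of 10 cases (adjusted p between 0.054 and 0.0982) and kept only without 120 ppm replicate 5 (0.0413). It was also lost after a second quantile normalization (0.0741), with a replicate block (0.0542) and with only the groups compared in the fit (0.0521).

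Of the 9 measured genes of thyroid hormone handling, Dio1, the deiodinase that activates thyroid hormone in liver, fell by 0.99 at 120 ppm (limma adjusted p = 0.000113), averaging 10.28 at 40 ppm and 9.92 at 120 ppm, against 10.91 in air. Thrb, the main thyroid hormone receptor of liver, rose by 0.47 (limma adjusted p = 0.0199). That call was lost without 120 ppm replicate 3 (0.0634) or 5 (0.0624), with arrays centred on their median (0.0629) and after a second quantile normalization (0.141). Slc16a10, the member that carries this hormone in humans, overlapped air at each dose.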

How the data were processed

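Liver RNA of 35 mice was hybridised to Affymetrix 3' IVT arrays, which read each transcript near its 3' end. The deposited values are on a log2 scale per probe set and array. RMA (background correction, normalization and summary of probes) and the Partek software are listed in the submitters' processing notes without further detail, and the base 2 was taken from the range of the values, 1.74 to 14.23. No normalization was added, and the number of arrays limits the precision.

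Of 45141 probe sets, 104 controls were left out. A platform annotation paired 28898 probe sets with 1 gene, and symbols were checked against a RefSeq gene list of GRCm38.p6, which changed 0 of them. Where a gene has several probe sets, the one with the highest mean over all arrays stands for it.

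In R 4.3.3, limma 3.58.1 fitted a mean per group to all 35 arrays (28 residual and 5.41 prior degrees of freedom), with Benjamini-Hochberg adjustment over all 45037 probe sets and a threshold of 0.05. The data.table package, at 1.17.8, read the files. The script was tested on simulated data. Intervals are at 95%. Replicate numbers follow the labels and mark separate mice.

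The members and lists were chosen with earlier results of these data known. Named were all members, all measured other Slc16 genes, up to 4 genes per list that passed at 120 ppm by smallest p (or else the gene with the smallest p), and the 3 most correlated genes per member (5 for Slc16a5). Genes added beyond that rule, Bsg, Slc6a8 and Gamt, were chosen after their values were seen. Other scalings, filters, weights, a replicate block and leaving out mice were tried as alternatives.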

Additional observations from a re-analysis of the deposited data

Results flagged for a closer look

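Among 70 groups of 5 values (10 probe sets, D630004K10Rik included, in 7 groups), 3 had a mouse whose gap to the nearest of the others exceeded 0.71 of the group's range (Dixon's 95% critical value). Chance flags about 1 in 20 groups. Air replicate 5 read 4.25 for Slc16a5, where the other air mice read 3.03 to 3.37. At 40 ppm replicate 2 read 8.91 for Slc16a12, where the others read 8.66 to 8.68. At 10 ppm replicate 2 read 5.61 for Slc16a11, where the others read 5.46 to 5.49.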

How the results depend on the processing

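Of the recomputed values, 345 stayed on their side of the threshold or moved by less than the spread or factor allowed, 23 moved, 1 lost its call and 1 reversed. This tally covers the counts and the differences of the members at 120 ppm against air and at 40 ppm against lower styrene. It leaves out the calls of single genes at 20 ppm against lower styrene and in the lists, several of which were lost as given above. The reversed value is that of Slc16a11 at 40 ppm against lower styrene, -0.0223 after a second quantile normalization (0.12 as reported, not called in either). Slc16a1 at 120 ppm against air, 0.06, was -0.04 with arrays centred and -0.01 in its other probe set, within the spread. For the Slc16 probe sets at 20 ppm against air, 2 called became 1 with arrays centred on their median and 0 with only the groups compared in the fit (4 at an unadjusted p under 0.05), and ranged over 0 to 2 when 1 mouse was left out. At 20 ppm against the 1, 5 and 10 ppm mice 2 became 0 with only the groups compared (4 unadjusted), and ranged over 0 to 3 when 1 replicate number was left out. The 4 pathway genes called at 20 ppm became 7 among brighter probe sets, 9 with array weights, 0 with only the groups compared (13 unadjusted), 8 without the 2 least correlated arrays (chosen after seeing the data), and 0 to 11 when 1 mouse was left out. The fit of only the groups compared uses fewer arrays; the cause of the other moves was not tested. The difference of Slc16a10 at 120 ppm, -0.29, was 0.046 in its other probe set. The Slc16a13 difference at 40 ppm against lower styrene, 0.42, was 0.34 without replicate 4. Left-out replicates gave 3 to 4 called Slc16 probe sets at 40 ppm against air, 4 to 5 at 120 ppm against air and 3 to 4 at 40 ppm against lower styrene. Counting the D630004K10Rik probe set, an addition chosen after seeing the data, gave 3, 5 and 5 at 20, 40 and 120 ppm against air. Same-numbered arrays had a mean correlation of deviations of 0.0328 (31 of 105 pairs over 0.1), against -0.0071 for arrays of different numbers (94 of 420). Of 35 arrays, 8 correlated best with their own number. The labels give no pairing of mice by replicate number, and this check cannot exclude a weak one. A replicate block gave 2, 4 and 4 called Slc16 probe sets at 20, 40 and 120 ppm against air, and 2 and 4 at 20 and 40 ppm against lower styrene. It gave 6, 12 and 11 pathway genes at 20, 40 and 120 ppm. Slc16a13 and the dimmer Slc16a1 probe set have no value among the brighter probe sets, and low readings limit what small differences can show.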
